A study of Mus musculus with 9 samples.

Results

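The Wnt genes described here are the secreted Wnt ligands, their Frizzled and LRP receptors, the secreted proteins that block or enhance them, and 5 genes that act inside the cell or feed back at its surface. They were picked out by gene symbol, with earlier results of these data known, and 51 of the 47729 genes in the table belong to them. Of these, 35 had a mean level of at least 3 on the log2 scale of the table and were tested, namely 10 ligands, 11 receptors, 8 antagonists, 2 R-spondins and 4 feedback and nuclear genes. Expression was measured by RNA sequencing in 9 libraries of synovial fibroblasts, which line the joint, in cultures from collagenase-digested paws of wild-type BALB/c mice. The 3 primed libraries came from left paws given monosodium urate (MSU) crystals, the crystals of gout, on day 0 and again on day 9. The 3 non-primed libraries are from right paws, given crystals on day 9 only, and the 3 naive libraries from paws without injection. RNA was taken at day 18, and all cultures had gone through 5 passages, so every value describes cells several passages away from the crystals. Paw side coincides with priming, primed and non-primed paws need not come from different mice, and no label says which culture came from which animal, so a p-value here measures the spread between these samples, which may be technical.

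Wnt ligands are lipid-modified proteins that bind a Frizzled receptor together with LRP5 or LRP6. In the canonical branch this stops the breakdown of beta-catenin, which then acts with TCF and LEF factors in the nucleus, while ligands such as WNT5A and WNT11 mostly signal without beta-catenin. The pathway shapes joints, cartilage and bone in development, and joint tissue is known for making many of its antagonists.

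All levels below are rlog values, which are read counts on a log2 scale that are adjusted for library depth and in which weakly expressed genes are drawn towards their mean. The depth of the libraries is unknown. Fibroblast markers were high in every library, with all 10 markers measured and a mean of 14.30 to 14.84 in primed, 14.65 to 14.78 in non-primed and 14.15 to 14.89 in naive libraries. The cultures also held macrophage transcripts. All 14 macrophage markers were measured, and their summed level, on the log2 scale, was 15.62 to 16.84 in primed, 15.84 to 16.34 in non-primed and 13.12 to 15.80 in naive libraries. Within naive it was 13.47 in naive 1, 15.80 in naive 2 and 13.12 in naive 3. The summed level of skeletal muscle markers was higher in all injected than in all naive libraries. It was 7.37 to 8.93 in primed and 7.84 to 8.69 in non-primed libraries, against 7.14 to 7.33 in naive libraries. Of these 10 markers 5 were below the filter, Myh4, Ckm, Myod1, Myog and Pax7. Not every muscle marker separated the groups: Tnnt3 was at 5.24 in primed 1, against 5.50, 5.42 and 5.46 in naive libraries. The part of either list in the differences between injected and naive libraries described below was not tested. In bulk samples, fewer cells of a type and less RNA per cell cannot be told apart. The naive libraries also stood apart from each other: naive 3 was the highest or the lowest of the 9 libraries in 21 of the 35 tested Wnt genes (60%, against 51.7% of all 15623 tested genes) and naive 2 in 16 (45.7%, against 39.2%).

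Promoters are shown for 2 receptors and 2 ligands that are among the Wnt genes with the smallest p in a comparison with naive, taken from RefSeq on GRCm38.p6. Each window runs from 250 bases before to 50 bases after the annotated start site, 5′ to 3′ on the strand of the gene. Capitals mark the TCF/LEF core, searched as CTTTGA and CTTTGT and as TCAAAG and ACAAAG on the other strand. No other motif was searched, and none of the matches shown overlap.
Fzd7 (chr1:59481897-59482196, plus strand): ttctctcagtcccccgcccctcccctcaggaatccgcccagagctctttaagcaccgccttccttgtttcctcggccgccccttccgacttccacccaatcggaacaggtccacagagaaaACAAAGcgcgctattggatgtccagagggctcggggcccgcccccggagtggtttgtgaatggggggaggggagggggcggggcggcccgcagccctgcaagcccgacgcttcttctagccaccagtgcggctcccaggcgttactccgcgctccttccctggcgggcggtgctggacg
Fzd1 (chr5:4758167-4758466, minus strand): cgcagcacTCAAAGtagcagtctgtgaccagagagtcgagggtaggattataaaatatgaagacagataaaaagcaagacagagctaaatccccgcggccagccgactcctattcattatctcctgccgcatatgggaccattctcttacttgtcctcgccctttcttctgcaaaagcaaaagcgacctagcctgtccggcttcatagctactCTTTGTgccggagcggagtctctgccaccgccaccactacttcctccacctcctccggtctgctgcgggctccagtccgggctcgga
Wnt11 (chr7:98834862-98835161, plus strand): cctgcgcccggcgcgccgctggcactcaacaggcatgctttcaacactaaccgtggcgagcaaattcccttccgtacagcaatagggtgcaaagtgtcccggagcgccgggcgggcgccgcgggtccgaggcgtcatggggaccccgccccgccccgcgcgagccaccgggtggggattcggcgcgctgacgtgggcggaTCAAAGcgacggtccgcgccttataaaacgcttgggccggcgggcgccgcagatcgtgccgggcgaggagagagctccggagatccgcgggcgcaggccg
Wnt2b (chr3:104961660-104961959, minus strand): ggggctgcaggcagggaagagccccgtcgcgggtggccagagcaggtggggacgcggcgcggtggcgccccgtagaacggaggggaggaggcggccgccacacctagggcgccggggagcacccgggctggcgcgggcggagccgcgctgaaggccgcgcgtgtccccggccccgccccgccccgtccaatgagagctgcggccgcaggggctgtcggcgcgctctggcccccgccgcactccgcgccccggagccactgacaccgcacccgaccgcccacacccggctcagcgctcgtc
Fzd7 held 1 match, whose first base is at -129 relative to the RefSeq start site. Fzd1 held 2, at -242 and -37, and the Wnt11 window shown held 1, at -50. RefSeq gives Wnt11 a second start site, inside the gene, and its window (chr7:98838595-98838894) held no match. No match lay in the Wnt2b window. RefSeq windows were found for 33 of the 51 Wnt genes, 41 windows in all, and 10 of these windows held the core (24.4%), against 31.2% of all 32851 promoter windows of the same length. The core was therefore no more frequent in the Wnt gene windows than in promoters at large. A match is a run of letters and does not show that a factor binds there. In GENCODE M21 the gene model begins 277 bases downstream of the RefSeq start site for Fzd7 and 181 bases downstream for Fzd1, at the same base for Wnt11, and upstream for Wnt2b, at -212 relative to the RefSeq start site.

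These cultures expressed a defined set of Wnt ligands. To set genes beside each other, the mean level over all 9 libraries was divided by exon length, as the rlog value minus the log2 of the exon length in kilobases. On this per-length scale Wnt16, a ligand known from cortical bone and from injured joint cartilage, was the highest ligand at 9.23. It was followed by Wnt5b at 7.26 and Wnt5a at 6.63, both best known for signalling without beta-catenin. Wnt9a, which marks forming joints in the mouse embryo, stood at 5.11, Wnt10a at 3.94 and Wnt11 at 3.48. Wnt2 was at 3.15, Wnt2b at 2.92, Wnt10b at 2.82 and Wnt4 at 2.39. The other 9 ligands were below the filter. Wnt6 lay just under it with a mean rlog of 2.84, Wnt7b had 1.35, Wnt7a, Wnt8a and Wnt8b were below 0, and Wnt1, Wnt3, Wnt3a and Wnt9b were listed at 0 in all 9 libraries.

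The receptors were measured more broadly than the ligands. Fzd1 (9.20 on the per-length scale), the co-receptor gene Lrp6 (8.99) and Fzd2 (8.65) led, followed by Fzd7 (7.81), Fzd5 (7.54), Fzd8 (7.40) and the co-receptor gene Lrp5 (7.25). Fzd4, Fzd6, Fzd3 and Fzd9 were lower, at 6.22, 5.00, 4.12 and 2.56, and only Fzd10, with a mean rlog of 2.28, was below the filter.

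Several secreted modulators were higher per length than any ligand. Dkk3, a divergent member of the Dickkopf family whose effect on Wnt signalling is not settled, stood at 12.35. Sfrp2 at 10.92 and Sfrp1 at 9.30 encode secreted Frizzled-related proteins, which carry a Frizzled-like domain that can bind ligands. Rspo2 at 10.72 and Rspo3 at 9.46 encode R-spondins, which raise Wnt signalling by removing the ZNRF3 and RNF43 ubiquitin ligases that clear Frizzled receptors. Dkk2, whose product binds LRP5 and LRP6, was at 7.96, Sfrp4 at 7.14 and Wif1, a secreted protein that binds the ligands themselves, at 6.38. Frzb, the cartilage-rich relative of the Sfrp genes, was at 4.34, and Notum, an enzyme that strips the lipid from Wnt proteins, at 2.90. Among those below the filter, Rspo1 lay just under it with a mean rlog of 2.99, Rspo4 and Dkk1 were below 0, and Dkk4 and Sfrp5 were listed at 0 throughout.

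Inside the cell, Ctnnb1, which encodes beta-catenin and serves cell junctions as well, was the highest of all at 12.61 on the per-length scale. Znrf3 was at 4.54, and Axin2, a scaffold of the complex that destroys beta-catenin and a widely used target of the pathway, at 3.22. The nuclear partners among the chosen genes, Tcf7 and Lef1, were low. Their relatives Tcf7l2 and Tcf7l1, which belong to the other pathway genes described below, were higher, at 4.81 and 3.77. Tcf7 was at 2.44, and Lef1 was below the filter, with rlog values of -0.36, -0.37 and -0.38 in primed and -0.36, -0.38 and -0.36 in non-primed libraries, against -0.32, -0.35 and 0.20 in naive libraries.

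**Figure D1:**
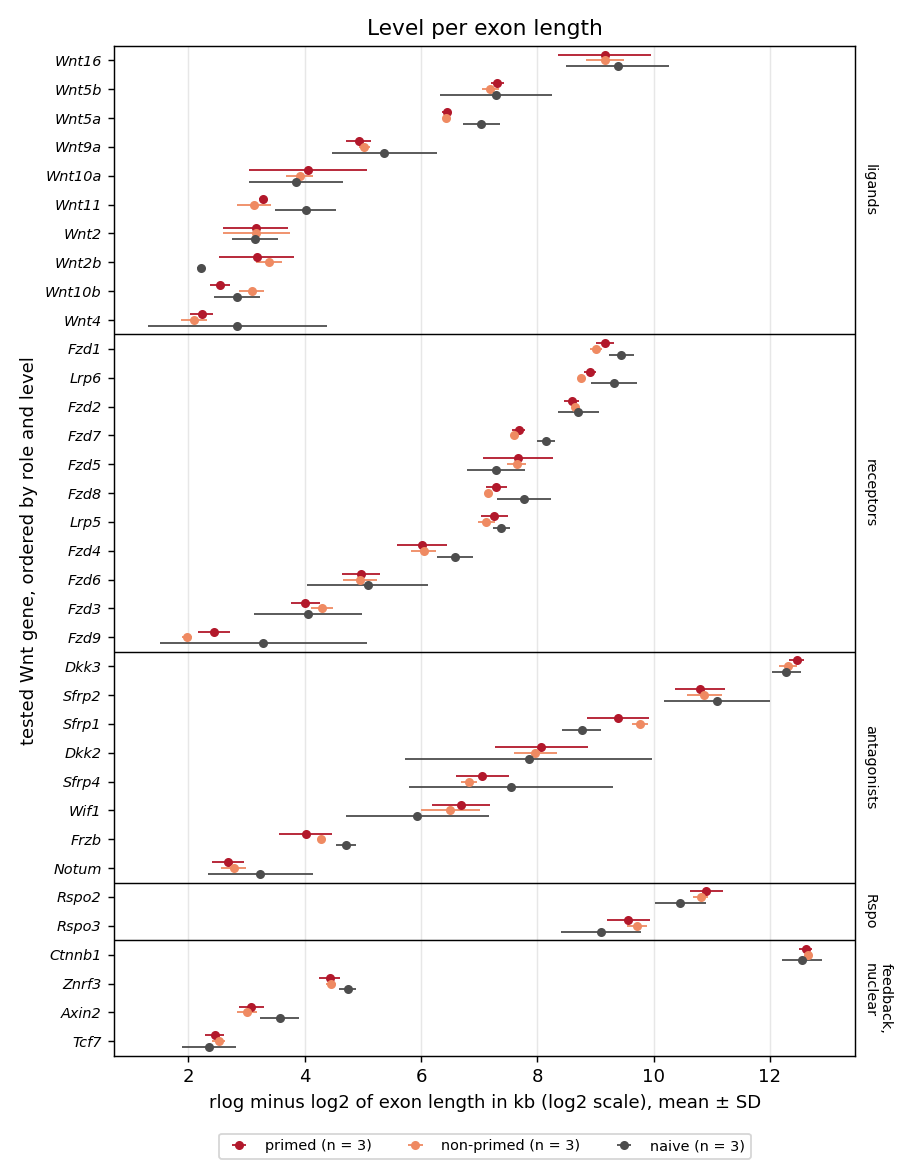
Level of each tested Wnt gene per exon length, as rlog minus log2 of exon length in kilobases (log2 scale, horizontal axis), by role. Points are means and bars the SD of 3 primed, 3 non-primed and 3 naive libraries. Dkk3, Rspo2, Sfrp2 and Ctnnb1 lie above 10, Wnt16 leads the ligands at about the level of Fzd1, and the naive bars are the widest for most genes.

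None of the Wnt genes passed the threshold of an adjusted p of 0.05 in any comparison (limma, 2-sided, Benjamini-Hochberg over 15623 genes). The count was 0 of 35 for non-primed minus naive, where 0.141% of all tested genes passed, and 0 of 35 for primed minus naive, where 0.102% passed. It was also 0 of 35 for primed minus non-primed, where 0% of all genes passed, and for any difference among the 3 groups, where 0.0704% passed. At an unadjusted p under 0.05 the counts in the same order were 10, 12, 1 and 10 of 35, where 15.4%, 16.9%, 1.26% and 12.8% of all tested genes passed. Both comparisons with naive share the naive libraries. The differences below are given as sizes with their standard errors (SE) and with whether the libraries of the groups overlapped.

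In cultures from crystal-injected paws the median Wnt gene was slightly lower than in naive cultures. The median log2 difference of the 35 genes was -0.22 for non-primed minus naive, with 14 higher and 21 lower, and -0.22 for primed minus naive, with 13 higher and 22 lower. Single libraries moved these medians: without non-primed 2 the non-primed median was -0.085, and without naive 2 the primed median was -0.13. Of all tested genes, 51.7% were higher in non-primed and 49.8% higher in primed than in naive libraries. The non-primed and naive libraries did not overlap in 14 of the 35 genes (40%, against 21.9% of all tested genes), with 3 higher in non-primed (background 11.6%) and 11 lower (background 10.3%). The primed and naive libraries did not overlap in 6 of the 35 (17.1%, against 17.1%), with 1 higher in primed (background 8.97%) and 5 lower (background 8.18%). The share for primed cultures was thus that of the background.

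**Figure D2:**
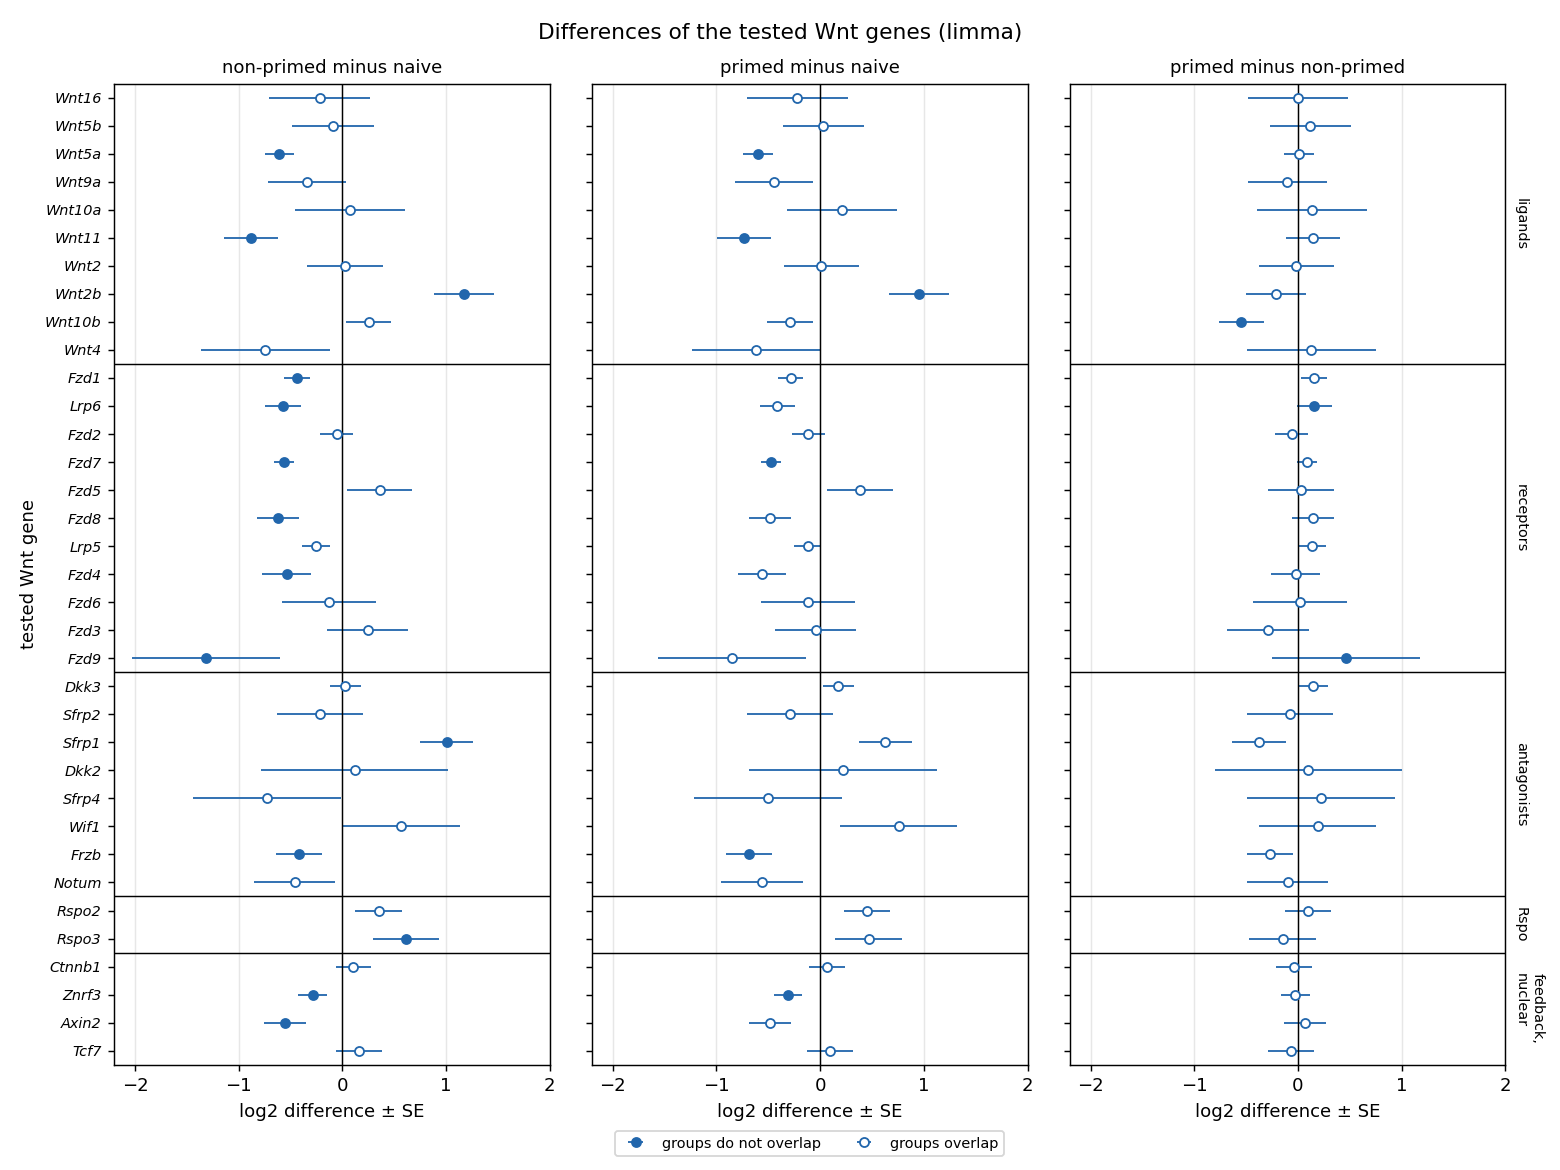
Log2 difference of each tested Wnt gene with its SE, from the limma fit, for non-primed minus naive, primed minus naive and primed minus non-primed (3 libraries a group). Filled points mark genes whose groups do not overlap. Most receptors lie left of 0 in both comparisons with naive, Wnt2b and Sfrp1 lie furthest right in non-primed minus naive, and no difference passed the adjusted threshold.

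The receptors were lower in injected than in naive cultures more often than not. In non-primed minus naive 9 of the 11 tested receptor genes were lower, with a median of -0.44, and the groups did not overlap in 6 of the 11, Fzd1, Fzd4, Fzd7, Fzd8, Fzd9 and Lrp6. Of all tested genes, 48.3% were lower there and 10.3% lower without overlap. In primed minus naive 10 of 11 were lower, with a median of -0.29, and the groups did not overlap in Fzd7 alone (9.09%). Of all tested genes, 50.2% were lower there and 8.18% lower without overlap, so the share of primed receptor genes without overlap was near the background. The number lower was 9 of 11 and 10 of 11 also after centring each library on its median and after quantile normalization. Naive 2 was the highest of the 9 libraries for Fzd1, Fzd4, Fzd9 and Lrp6, and naive 3 for Fzd2, Fzd6, Fzd7, Fzd8 and Lrp5. Without naive 2, 9 of 11 receptor genes were lower in non-primed (median -0.32) and 8 of 11 in primed cultures (median -0.16). Without naive 3, 8 of 11 were lower in non-primed (median -0.47) and 8 of 11 in primed cultures (median -0.36).

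Fzd7 (chromosome 1, 59482424 to 59486955, plus strand), a receptor used in both branches of the pathway, had the smallest p of the 35 genes in both comparisons with naive. It had 9.97, 9.75 and 9.85 in primed libraries 1 to 3 and 9.78, 9.78 and 9.76 in non-primed libraries, against 10.23, 10.26 and 10.51 in naive libraries. All 6 injected libraries lay below all 3 naive libraries. The difference was -0.56 (SE 0.10, adjusted p = 0.067) for non-primed minus naive and -0.47 (SE 0.10, adjusted p = 0.10) for primed minus naive. For non-primed minus naive it passed the threshold without naive 2 (-0.60, adjusted p = 0.036), where 2.27% of all tested genes passed, and without naive 3 (-0.47, adjusted p = 0.035), where 1.7% passed.

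Fzd1 (chromosome 5, 4753839 to 4758035, minus strand) had 11.37, 11.06 and 11.26 in primed libraries and 11.14, 10.96 and 11.12 in non-primed libraries, against 11.41, 11.76 and 11.37 in naive libraries. The non-primed libraries lay below all naive ones, while primed 1 met the lowest naive library. Fzd1 differed by -0.44 (SE 0.12, adjusted p = 0.17) in non-primed and by -0.29 (SE 0.12, adjusted p = 0.29) in primed minus naive. Fzd8 had 9.70, 9.85 and 10.06 in primed and 9.74, 9.70 and 9.74 in non-primed libraries, against 9.82, 10.59 and 10.64 in naive libraries, so that naive 1 sat within the primed range. Without naive 1 both differences of Fzd8 passed the threshold, at -0.89 for non-primed (SE 0.11, adjusted p = 0.035) and -0.74 for primed minus naive (SE 0.11, adjusted p = 0.0497). Of all tested genes 0.531% and 0.359% passed in that fit. Naive 1 was the lowest naive library for Fzd8, so leaving it out had to widen both differences. In non-primed minus naive Lrp6 differed by -0.57 (SE 0.17) and Fzd4 by -0.54 (SE 0.24). Neither gene overlapped between those groups, with 12.48 to 12.56 in non-primed against 12.73 to 13.52 in naive libraries for Lrp6, and 8.54 to 8.94 in non-primed against 8.98 to 9.55 in naive libraries for Fzd4. Lrp5 had 10.30, 10.77 and 10.56 in primed and 10.33, 10.57 and 10.32 in non-primed libraries, against 10.57, 10.59 and 10.83 in naive libraries, and its groups overlapped. Fzd5 went the other way, at 0.36 (SE 0.32) in non-primed and 0.39 (SE 0.32) in primed minus naive, and its groups overlapped.

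The ligands split. Wnt5a and Wnt11 were lower in injected cultures and Wnt2b was higher, each with no overlap between either injected group and naive. Wnt5a (chromosome 14, 28504750 to 28527448, plus strand) had 9.49, 9.36 and 9.37 in primed libraries and 9.37, 9.41 and 9.40 in non-primed libraries, against 9.81, 10.37 and 9.83 in naive libraries. The 6 injected libraries lay within 9.36 to 9.49, all below naive. The difference was -0.61 (SE 0.14, adjusted p = 0.13) in non-primed and -0.60 (SE 0.14, adjusted p = 0.14) in primed minus naive. Without naive 2, the highest library, the sizes were smaller, -0.42 and -0.41 (SE 0.08 each), and both passed (adjusted p = 0.042 and 0.046). Of all tested genes 2.27% and 2.28% passed in that fit. Wnt11 (chromosome 7, 98835112 to 98855195, plus strand) had 5.38, 5.25 and 5.35 in primed libraries and 5.35, 4.85 and 5.35 in non-primed libraries, against 5.50, 6.16 and 6.54 in naive libraries. It differed by -0.88 (SE 0.26, adjusted p = 0.19) in non-primed and -0.74 (SE 0.26, adjusted p = 0.23) in primed minus naive. Naive 1 was close to the injected libraries, and naive 2 and naive 3 lay further above them.

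Wnt2b (chromosome 3, 104945272 to 104961921, minus strand), a ligand of the canonical branch, had 4.54, 5.79 and 5.41 in primed libraries and 5.54, 5.62 and 5.21 in non-primed libraries, against 4.24, 4.36 and 4.26 in naive libraries. The naive libraries agreed closely, with an SD of 0.06, and every injected library was above them, primed 1 by the least. The difference was 1.17 (SE 0.29, adjusted p = 0.14), a fold of 2.25 on the rlog scale, in non-primed and 0.96 (SE 0.29, adjusted p = 0.19), a fold of 1.94, in primed minus naive. Without primed 1 both passed the threshold, at 1.17 (adjusted p = 0.0498) and 1.31 (adjusted p = 0.045). Of all tested genes 0.307% and 0.371% passed in that fit. Primed 1 was the lowest primed library for Wnt2b, so leaving it out had to widen the primed difference. The non-primed difference uses primed libraries only in the shared estimate of the spread and in the filter.

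The other ligands overlapped between injected and naive libraries. Wnt5b, Wnt2, Wnt16 and Wnt10a differed by -0.22 to 0.21 in either comparison with naive. Wnt10b, a ligand known for holding back fat cell formation, was the gene with the smallest p in primed minus non-primed. It had 4.14, 4.49 and 4.29 in primed libraries, against 4.84, 5.08 and 4.64 in non-primed libraries, and 4.63, 4.19 and 4.97 in naive libraries. Primed and non-primed libraries did not overlap, at a difference of -0.54 (SE 0.22, unadjusted p = 0.035, adjusted p = 1.00), and the naive libraries spanned nearly the whole range of both.

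**Figure D3:**
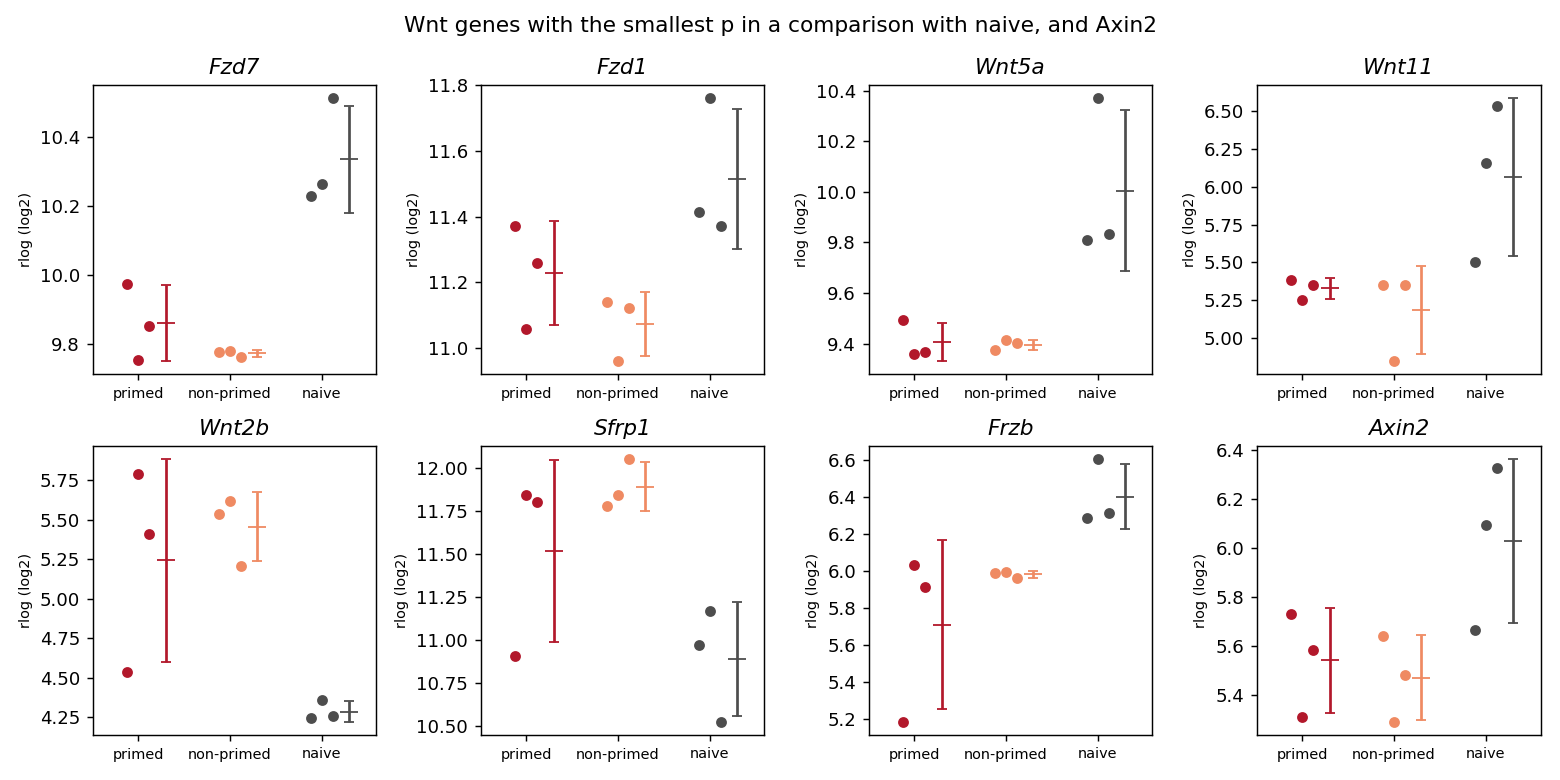
Values of 8 Wnt genes in each library (rlog, log2 scale, vertical axes that do not start at 0), in primed, non-primed and naive libraries. Points are libraries 1 to 3 from left to right, and the bars beside them the mean and SD. All 6 injected libraries lie below naive for Fzd7, Wnt5a, Wnt11 and Frzb and above naive for Wnt2b, while primed 1 falls among the naive libraries for Sfrp1.

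Among the antagonists, Sfrp1 and Frzb, which are relatives in sequence, stood on opposite sides. Sfrp1 (chromosome 8, 23411502 to 23449632) had 10.91, 11.84 and 11.80 in primed libraries and 11.78, 11.84 and 12.05 in non-primed libraries, against 10.97, 11.17 and 10.52 in naive libraries. It differed by 1.00 (SE 0.26, adjusted p = 0.15) in non-primed minus naive, where the groups did not overlap, and by 0.63 (SE 0.26, adjusted p = 0.27) in primed minus naive, where primed 1 lay within the naive range. In primed minus non-primed Sfrp1 differed by -0.37 (SE 0.26). Without primed 1 that difference was -0.07. Frzb (chromosome 2, 80411970 to 80447625) had 5.19, 6.03 and 5.91 in primed libraries and 5.99, 5.99 and 5.96 in non-primed libraries, against 6.29, 6.60 and 6.31 in naive libraries. Injected and naive libraries did not overlap. The difference was -0.42 (SE 0.22, adjusted p = 0.41) in non-primed and -0.69 (SE 0.22, adjusted p = 0.20) in primed minus naive, which was -0.43 without primed 1. Dkk3 differed by 0.03 (SE 0.15) in non-primed and 0.18 (SE 0.15) in primed minus naive, and its 9 libraries spanned 13.81 to 14.36.

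The R-spondin genes were both higher in injected than in naive cultures without passing the threshold. Rspo2 averaged 13.26 ± 0.29 in primed and 13.16 ± 0.13 in non-primed libraries, against 12.81 ± 0.44 in naive libraries (SD, n = 3 each). Rspo3 averaged 11.19 ± 0.37 in primed and 11.34 ± 0.18 in non-primed libraries, against 10.72 ± 0.69 in naive libraries (SD, n = 3 each). For both genes naive 3 was the lowest of the 9 libraries, at 12.36 for Rspo2 and 9.92 for Rspo3, while naive 1 had 13.24 and 11.11 and naive 2 had 12.84 and 11.13. Naive 1 lay within the range of the injected libraries for both genes, and naive 2 did for Rspo3.

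Of the 4 tested feedback and nuclear genes, Axin2 and Znrf3 were lower and Ctnnb1 and Tcf7 higher in both comparisons with naive, and none passed the threshold. Axin2 had 5.73, 5.31 and 5.58 in primed libraries and 5.64, 5.29 and 5.48 in non-primed libraries, against 5.66, 6.09 and 6.32 in naive libraries. Naive 1 lay within the primed range and just above the non-primed libraries. Axin2 differed by -0.56 (SE 0.20, adjusted p = 0.25) in non-primed and by -0.49 (SE 0.20, adjusted p = 0.28) in primed minus naive. Znrf3 had 7.21, 7.48 and 7.54 in primed libraries and 7.52, 7.41 and 7.36 in non-primed libraries, against 7.63, 7.89 and 7.64 in naive libraries. The injected libraries all lay below naive, with differences of -0.29 in non-primed and -0.31 in primed minus naive (SE 0.14 each). Ctnnb1 had 14.87, 15.07 and 15.03 in primed and 15.03, 15.06 and 15.00 in non-primed libraries, against 14.75, 14.70 and 15.32 in naive libraries, so that the naive group enclosed all injected libraries. Tcf7 had 3.66, 3.98 and 3.89 in primed and 3.89, 3.81 and 4.04 in non-primed libraries, against 3.96, 4.08 and 3.22 in naive libraries, with the same pattern.

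Differences between primed and non-primed cultures were small for most Wnt genes. The 35 differences ran from -0.54 for Wnt10b to 0.47 for Fzd9 with a median of 0.02, and 20 were higher and 15 lower in primed, where 50.3% of all tested genes were higher. The groups did not overlap in 3 genes (8.57%, against 11.6% of all tested genes), namely Fzd9 and Lrp6, which were higher in primed (background 6.31%), and Wnt10b, which was lower (background 5.25%). After Wnt10b and Sfrp1, the smallest p-values were those of Fzd1 at 0.16 (SE 0.12), Frzb at -0.27 (SE 0.22) and Lrp5 at 0.13 (SE 0.13). Single libraries carried several of these values. Beside Sfrp1, whose value without primed 1 is given above, the difference without primed 1 was 0.09 for Fzd1 and -0.01 for Frzb, and without primed 2 it was 0.02 for Lrp5. The genes that led the comparisons with naive differed by 0.09 (SE 0.10) for Fzd7, 0.01 (SE 0.14) for Wnt5a and -0.21 (SE 0.29) for Wnt2b in primed minus non-primed.

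The widest variation in Wnt genes was between the naive cultures themselves. The median SD over the 35 genes was 0.25 in primed and 0.15 in non-primed libraries, against 0.46 in naive libraries. The naive group had the largest SD of the 3 groups in 26 of 35 genes (74.3%, against 67.4% of all tested genes). In 12 of the 35 genes the naive libraries lay both above and below all 6 injected libraries. The share of all tested genes with this pattern was not counted, so the number cannot be set against a background.

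**Figure D4:**
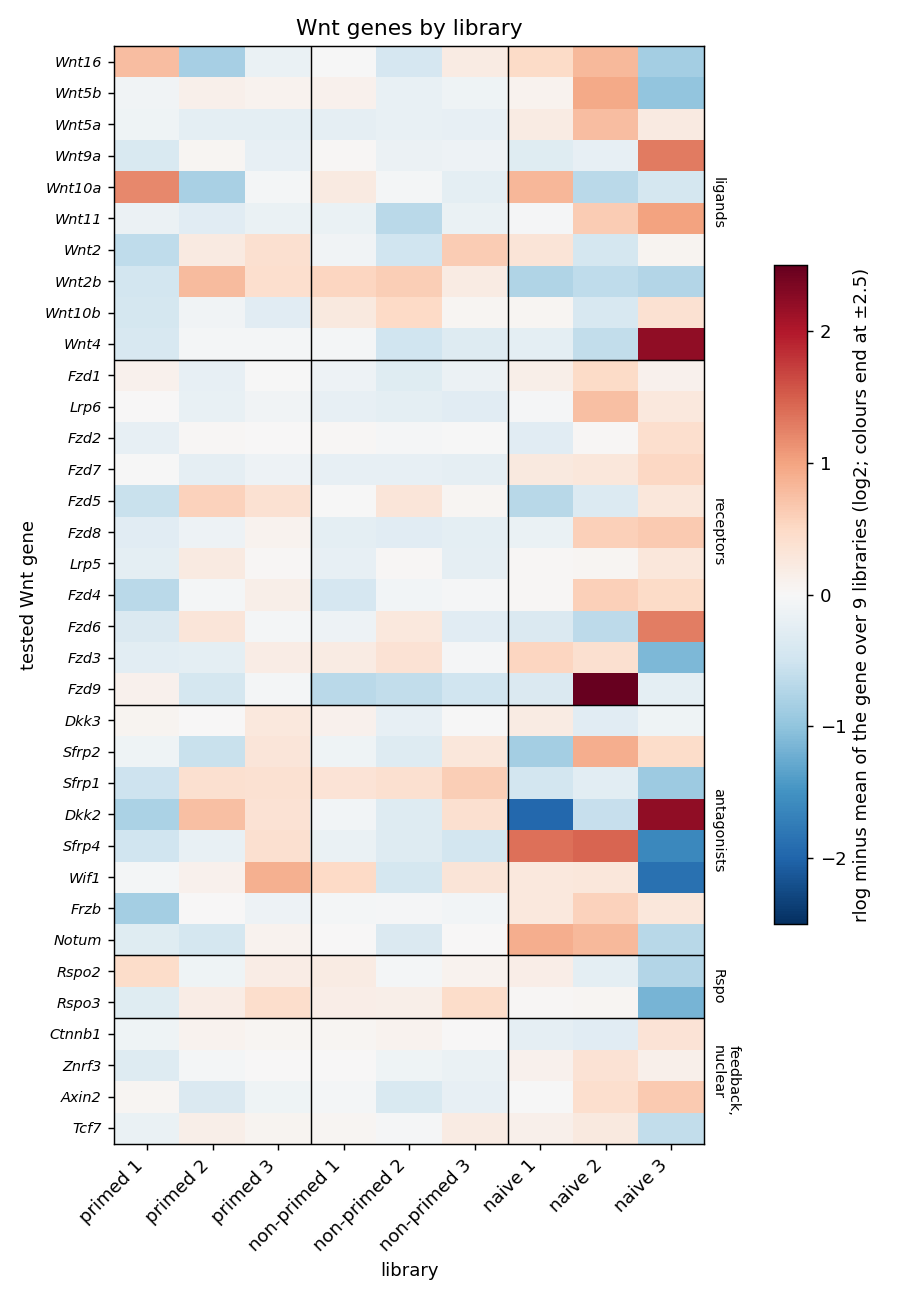
Each tested Wnt gene (rows, by role) in each library (columns, primed, non-primed and naive), coloured by its rlog value minus its mean over the 9 libraries (log2 scale). The strongest colours are in the naive columns, with Dkk2 and Wnt4 high and Wif1 and Sfrp4 low in naive 3, Dkk2 low in naive 1 and Fzd9 high in naive 2.

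Dkk2 varied most. It had 9.05, 10.60 and 10.22 in primed libraries and 9.78, 9.53 and 10.26 in non-primed libraries, against 7.89, 9.26 and 12.06 in naive libraries. Naive 3 was the highest and naive 1 the lowest of all, a fold of 18.1 on the rlog scale. Fzd9 was high in a single library: it had 3.86, 3.33 and 3.71 in primed and 3.09, 3.15 and 3.26 in non-primed libraries, against 3.40, 6.54 and 3.51 in naive libraries, and passed the filter on low values with a mean of 3.76. Its difference was -1.31 in non-primed minus naive (SE 0.71), and its values outside naive 2 were all near the filter.

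Naive 3 set itself apart in ligands and antagonists alike. Wnt4 had 4.06, 4.41 and 4.41 in primed and 4.40, 3.95 and 4.13 in non-primed libraries, against 4.22, 3.84 and 6.67 in naive libraries. Wnt9a in the same way had 8.14 in naive 3 and 6.46 to 6.88 in the other 8 libraries, and Fzd6 had 8.54 in naive 3 and 6.60 to 7.56 in the others. Wif1 was low there, with 7.61, 7.76 and 8.54 in primed and 8.16, 7.21 and 7.97 in non-primed libraries, against 7.92, 7.93 and 5.79 in naive libraries. Endothelial markers as a list singled out naive 3 by their summed level but not by their mean. The summed level of all 8 markers, on the log2 scale, was 8.13 to 8.59 in primed and 8.46 to 8.70 in non-primed libraries. In naive libraries it was 7.44, 8.12 and 9.54. The mean of the 4 tested markers was 5.25 to 5.66 in primed and 5.20 to 5.54 in non-primed libraries, against 4.57, 5.23 and 5.52 in naive libraries, and the other 4 markers, Cdh5, Emcn, Cldn5 and Tie1, were below the filter. Among the tested ones, Tek was highest in naive 3 at 9.38, while Pecam1 was at 2.79 there. Their part in these values was not tested.

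Sfrp4 and Notum divided the naive group. Sfrp4 had 8.71, 9.02 and 9.61 in primed and 9.03, 8.89 and 8.75 in non-primed libraries, against 10.59, 10.67 and 7.59 in naive libraries. Notum had 3.86, 3.72 and 4.25 in primed and 4.17, 3.79 and 4.17 in non-primed libraries, against 5.07, 4.97 and 3.46 in naive libraries. For both genes naive 1 and naive 2 were above and naive 3 below all 6 injected libraries. Without naive 3 the Sfrp4 differences passed the threshold, at -1.73 (SE 0.23, adjusted p = 0.020) in non-primed and -1.51 (SE 0.23, adjusted p = 0.032) in primed minus naive. Of all tested genes 1.7% and 1.25% passed in that fit. Naive 3 was the only low naive library for Sfrp4, so leaving it out had to widen both differences. The mean of the 5 tested adipocyte markers was 6.26 to 7.55 in primed and 6.22 to 6.55 in non-primed libraries, against 8.80 in naive 1, 8.94 in naive 2 and 6.39 in naive 3. Naive 1 and naive 2 were thus above all injected libraries, and naive 3 lay among them. Their summed level on the log2 scale separated the libraries less, at 11.27 to 12.15 in primed and 11.28 to 11.56 in non-primed libraries, against 12.19, 12.23 and 11.31 in naive libraries. Lep, Cidec and Pck1, the other 3 markers of that list, were below the filter, and the part of adipocyte transcripts was not tested.

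Within the primed group, primed 1 stood apart from primed 2 and primed 3 in several Wnt genes. It was the highest or the lowest of the 9 libraries in 9 of the 35 (25.7%, against 12.1% of all tested genes). Primed 2 was so in 5 (14.3%, against 32.6%), so over all tested genes primed 2 was the more extreme library. Wnt10a had 6.45, 4.43 and 5.19 in primed and 5.47, 5.19 and 5.00 in non-primed libraries, against 6.07, 4.56 and 4.81 in naive libraries, and Wnt16 had 12.12, 10.53 and 11.20 in primed and 11.35, 10.93 and 11.57 in non-primed libraries, against 11.84, 12.17 and 10.50 in naive libraries. Primed 1 was the highest primed library for both ligands and the lowest for Dkk2, Sfrp1, Wnt2b, Frzb and Fzd5. For Wnt16, the leading ligand of the cultures, the difference was -0.22 (SE 0.49) in each comparison with naive, so none was detectable with 3 libraries a group.

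**Figure D5:**
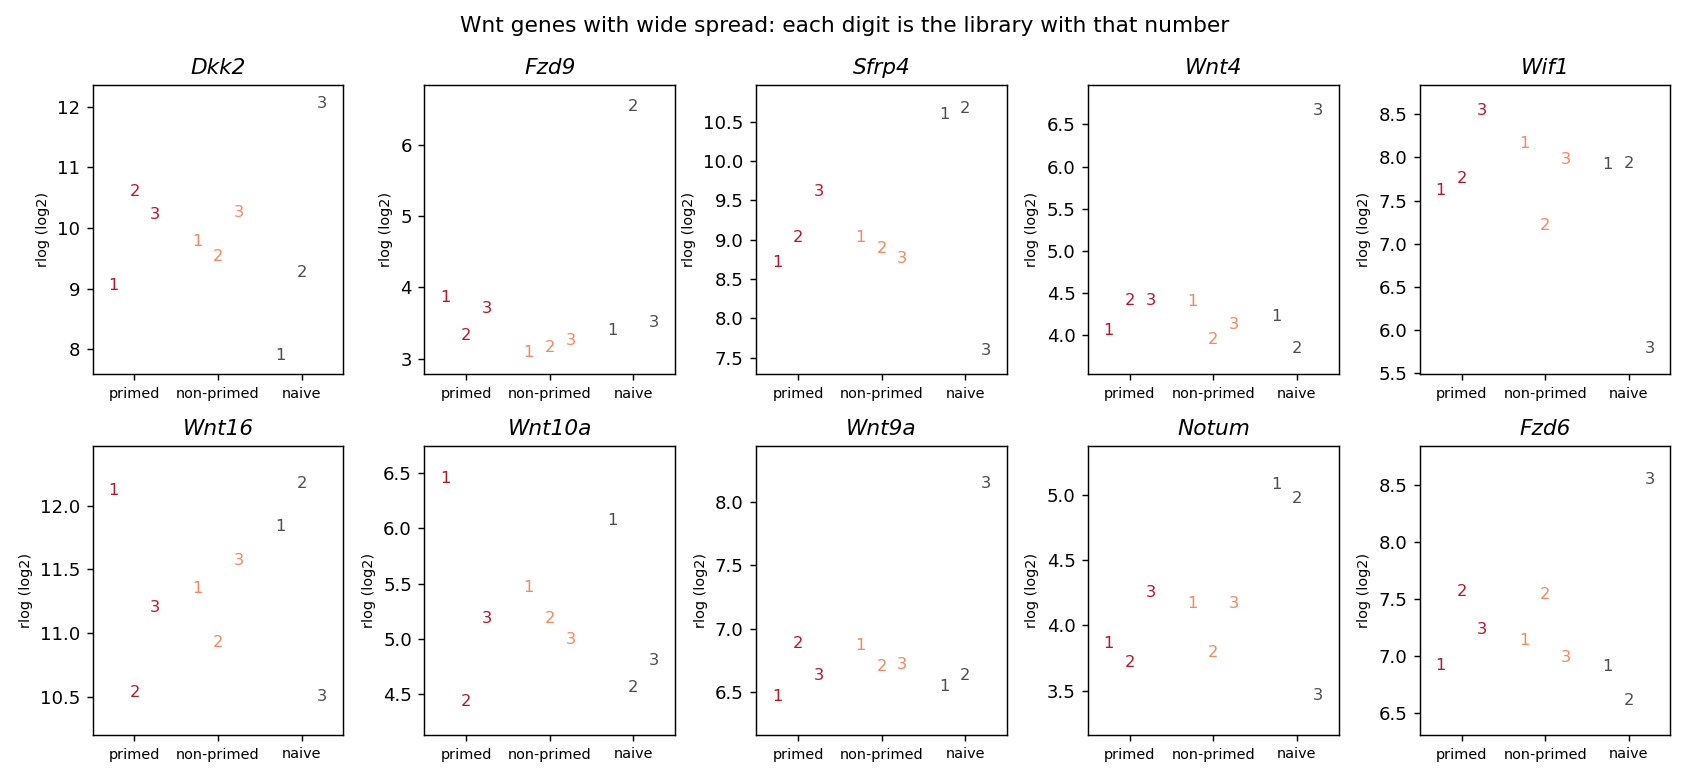
Values of 10 Wnt genes with wide spread (rlog, log2 scale, vertical axes that do not start at 0) in primed, non-primed and naive libraries, where each digit is the library of that number. Naive 3 lies at the top for Dkk2, Wnt4, Wnt9a and Fzd6 and at the bottom for Sfrp4, Wif1, Wnt16 and Notum, and naive 2 alone is high for Fzd9.

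The rest of the pathway was examined in a list of 71 other genes, of which 65 were tested, and none passed the threshold in any comparison of 2 groups (limma). At an unadjusted p under 0.05 the counts were 11 for non-primed minus naive (16.9%, against 15.4% of all tested genes), 13 for primed minus naive (20%, against 16.9%) and 0 for primed minus non-primed (against 1.26%). The median differences in the same order were -0.12, -0.11 and -0.01, with 47, 45 and 34 of the 65 genes lower, where 48.3%, 50.2% and 49.7% of all tested genes were lower. Without naive 3 the non-primed median was -0.06, with 38 genes lower. Non-primed and naive libraries did not overlap in 16 of the 65 (24.6%, against 21.9%), with 3 higher in non-primed (background 11.6%) and 13 lower (background 10.3%). Primed and naive libraries did not overlap in 9 (13.8%, against 17.1%), with 1 higher in primed (background 8.97%) and 8 lower (background 8.18%). The 3 genes with the smallest p in non-primed minus naive were Bambi, Prickle1 and Daam2, and in primed minus naive Prickle1, Gsk3b and Bambi.

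Prickle1, a planar cell polarity gene, had 9.35, 9.88 and 9.84 in primed and 9.54, 9.50 and 9.65 in non-primed libraries, against 9.09, 9.12 and 9.10 in naive libraries. All injected libraries were higher, by 0.46 (SE 0.14, adjusted p = 0.19) in non-primed and 0.58 (SE 0.14, adjusted p = 0.13) in primed libraries. Without primed 1, the lowest primed library for Prickle1, the primed difference was 0.75 (adjusted p = 0.030), where 0.371% of all tested genes passed. Bambi, a decoy receptor of the TGF-beta family that beta-catenin is known to raise, had 8.39, 8.15 and 8.51 in primed and 8.37, 8.16 and 8.37 in non-primed libraries, against 8.91, 8.85 and 8.64 in naive libraries. It differed by -0.50 (SE 0.13) in non-primed and -0.45 (SE 0.13) in primed minus naive. Bambi was listed with genes often raised by beta-catenin, of which 8 were tested, and it alone had no overlap with naive. In non-primed minus naive 5 of the 8 were higher and 3 lower, with a median of 0.07. In primed minus naive 3 were higher and 5 lower, with a median of -0.03. Gsk3b, the kinase that marks beta-catenin for breakdown, had 10.69, 10.47 and 10.70 in primed and 10.69, 10.81 and 10.63 in non-primed libraries, against 11.00, 11.03 and 10.92 in naive libraries, a difference of -0.27 (SE 0.09) in non-primed and -0.36 (SE 0.09) in primed minus naive. Daam2, a formin of the planar polarity branch, differed by -0.81 (SE 0.24) in non-primed minus naive. In primed minus non-primed the smallest p-values were those of Csnk1a1 at -0.14 (SE 0.09), Ctnnbip1 at 0.09 (SE 0.08) and Apc at -0.10 (SE 0.09). Wls and Porcn, which every Wnt ligand needs for its secretion and lipid, differed by -0.07 to 0.13 in the comparisons with naive.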

How the data were processed

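RNA was sequenced from 9 libraries, 3 per group, with a stranded mRNA kit per the labels' protocols. The submitters' processing notes name GRCm38 as the build, and as tools DESeq2, featureCounts, Subread 1.6.1, STAR 2.5.4a and cutadapt 2.5, with no roles or order. Not given in the sources used here: strand setting, annotation release and transformation settings. Thus overlapping and antisense genes cannot be told apart. The authors deposited rlog values on a log2 scale for 47729 genes. Counts are not used here, so depth is unknown and counting intervals are left out. Rlog shrinks differences of weakly expressed genes.

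Genes that varied and had a mean of at least 3 were tested (15623 genes) with limma 3.58.1 in R 4.3.3, with 1 mean per group, all 9 libraries, a mean-variance trend, 2-sided tests and Benjamini-Hochberg adjustment. Symbols came from a table that matched 47224 identifiers. Exon lengths and coordinates are from GENCODE M21 (GRCm38). The fit was tested on simulated data. The genes and lists were chosen with earlier results of these data known. Genes named with a value in every library are those past the threshold, the 5 smallest p per comparison, the 5 widest ranges and 6 fixed genes; others named in this way were chosen after their values were seen. Alternatives changed the filter, variance trend, groups fitted, scaling, library weights, replicate block and libraries used. Deviations from group means of same-numbered primed and non-primed libraries correlated across genes at 0.418, 0.608 and 0.100. Those of different-numbered ones correlated at -0.497 to 0.275, the highest being primed 1 with non-primed 3. Same-numbered libraries may be paired, but the value for number 3 was not above all different-numbered ones. No label says whether the numbers identify a mouse.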

Additional observations from a re-analysis of the deposited data

How the results depend on the processing

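The number of Wnt genes past the threshold was 0 in all comparisons under no filter on low values, a filter at a mean of 5, no variance trend, fits of 2 groups alone, median centring, quantile normalization and the replicate block, which treats same-numbered libraries as pairs and gave 0 for Wnt genes and 0 for the other pathway genes. With sample weights it was 3 for non-primed minus naive and 3 for primed minus naive (Fzd7, Wnt2b and Wnt5a in each), 4 for primed minus non-primed and 6 for any difference among the 3 groups, where 3.97%, 4.69%, 13.5% and 15.9% of all tested genes passed. The 65 other pathway genes then gave 1, 4, 3 and 8. Those weights ran from 0.133 for naive 3 to 10.4 for non-primed 1, so a few libraries carry the fit. Leaving out 1 library gave 0 to 2 Wnt genes for non-primed minus naive, 0 to 1 for primed minus naive and 0 to 1 for any difference. In the fits that gave any, those without naive 1, naive 2, naive 3 or primed 1, 0.307% to 2.27% of all tested genes passed in non-primed minus naive and 0.359% to 2.28% in primed minus naive. For the other pathway genes it gave 0 to 2 for non-primed minus naive (Lgr5 without naive 1, and Trabd2b and Prickle2 without naive 3) and 0 to 1 for primed minus naive (Lgr5 without naive 1, Bcl9 without naive 3, Prickle1 without primed 1), and Prickle1 also passed for any difference without primed 1. The cause was not tested. The median of the Wnt genes was -0.08 in primed minus naive with sample weights, and -0.09 in non-primed and -0.11 in primed minus naive with no filter. That of the other pathway genes was -0.06 in primed minus naive with sample weights. The Wnt11 difference in primed minus naive was -0.40 with sample weights. Of the 24 differences named by p-value, followed through 405 values, 0 changed direction and 17 moved past the threshold. Many of these values could not change direction. The filter, the variance trend, the groups fitted and the replicate block leave a difference as it is. So does leaving out a library of a group outside the comparison. The 24 were also picked for small p in these same data, so the count of 0 is no measure of robustness. The number of lower receptor genes was 8 of 11 in non-primed minus naive with sample weights or without naive 3, and 8 of 11 in primed minus naive with sample weights (median -0.11) or without naive 2, naive 3 or primed 1.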
